A study of Rattus norvegicus with 25 samples.

Results

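A set of 10 genes of the canonical Wnt pathway was followed, chosen by symbol for their place in it: the coreceptors Lrp5 and Lrp6, the target genes and transcription factors Axin2, Lef1 and Tcf7, and the secreted inhibitors Sfrp1, Sfrp2, Sfrp4, Dkk3 and Wif1. Of the 10 genes, 9 had a row among the 16881 distinct gene symbols of the deposited count tables, each of them once. Tcf7 was found under neither its symbol nor a synonym and is not analysed here. All 9 passed the filter on low counts and were among the 11492 genes tested.

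The libraries came from tooth and periodontal ligament, the fibrous tissue that anchors a tooth in its socket, of Sprague-Dawley rats whose maxillary first molars had been extracted, dried and put back. In delayed replantation (DR) the tooth was dried for 60 min and in immediate replantation (IR) for 5 min, and each was sampled at day 7 and at day 3, with 6 libraries in each of the 4 groups. NT was a single library labelled as control. Postnatal day 21 is given as the age of all libraries, without saying if it refers to the day of surgery or of sampling, and the rats of NT may thus have been younger than the others. The labels do not state that libraries came from separate animals. The p-values given here therefore measure the spread between libraries, which may be technical.

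Wnt proteins bind a Frizzled receptor together with Lrp5 or Lrp6 on the cell surface. This halts the complex of Apc, Axin proteins and Gsk3 that marks beta-catenin for destruction, and beta-catenin then enters the nucleus and joins Tcf and Lef proteins on DNA. Axin2 is a scaffold of the destruction complex and a feedback target of the pathway in many tissues. Secreted frizzled-related proteins (the Sfrp genes) carry a Wnt-binding domain like that of Frizzled, and Wif1 also binds Wnt proteins outside the cell. Dkk3 is the divergent member of the Dickkopf family, whose other members include ligands of Lrp5 and Lrp6. In bone and in the tissues around teeth the pathway is known for its part in forming mineralised matrix.

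The promoters of the target genes Axin2 and Lef1 are shown because Tcf and Lef proteins act through short DNA motifs. RefSeq sequences of build GRCr8 were found for 4 of the 9 genes (Axin2, Lef1, Sfrp2 and Wif1). Both strands were searched for the motif CTTTGAA, for its variant CTTTGAT, for the variant CTTTGTA and for the variant CTTTGTT in the 250 bases before the start of each gene, and capitals mark the matches. The Axin2 promoter, chr10:94398535-94398784 on the plus strand, held 2 matches, beginning 232 and 132 bases before the start, and the Lef1 promoter, chr2:222340463-222340712 on the plus strand, held 0.
Axin2: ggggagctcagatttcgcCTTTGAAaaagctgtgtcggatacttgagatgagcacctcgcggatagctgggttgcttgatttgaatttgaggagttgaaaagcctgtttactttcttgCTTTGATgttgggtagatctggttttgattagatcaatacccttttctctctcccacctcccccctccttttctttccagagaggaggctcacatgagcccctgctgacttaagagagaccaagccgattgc
Lef1: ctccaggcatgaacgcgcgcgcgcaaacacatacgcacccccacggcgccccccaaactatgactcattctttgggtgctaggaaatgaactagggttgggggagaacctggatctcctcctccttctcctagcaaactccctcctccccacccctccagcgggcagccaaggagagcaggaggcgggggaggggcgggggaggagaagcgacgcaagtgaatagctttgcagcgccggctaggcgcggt
The promoters of Sfrp2 and Wif1 also held 0 matches. Among 33469 promoters searched in the same way, 14.9% held at least 1 match and 1.73% held at least 2. A match describes the letters and is not evidence of a bound site.

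Levels are given as CPM, counts scaled to 1 M counts of effective library size. The libraries were made with a kit that reads the 3′ end of each transcript, so a count does not grow with transcript length. Reads count for a gene only where the annotation holds that end, and the annotation used is not given. CPM of different genes therefore give an order of counts, which may differ from the order of transcripts. Depth was 5.04 to 8.81 M counts after replantation and 8.55 M in NT, with 9.74% to 33.84% ribosomal RNA after replantation and 2.91% in NT.

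Several day 3 libraries stood apart in their sums of cell type markers. Summed over 6 periodontal ligament fibroblast markers with a row, of 8 listed and all 6 detected in every library, the level was 240.2 to 669 CPM in DR day 3 replicates 1 to 3 and IR day 3 replicate 6. It was 3819 to 10352 CPM in the 12 day 7 libraries and 672 to 6843 CPM in the 8 other day 3 libraries, of which IR day 3 replicates 4 and 3 were lowest with 672 and 872 CPM, so that ligament markers alone do not set the 4 libraries apart. Osteoblast markers, 7 of 7 with a row and 6 or 7 detected in every library, summed to 459 to 8822 CPM in those 4 libraries, 36369 to 96884 CPM at day 7 and 13550 to 49215 CPM in the 8. Markers of lipid-secreting glands, 4 of 5 with a row and 2 to 4 detected, ran the other way, with 13418 to 30842 CPM in the 4 libraries, 2.69 to 3893 CPM at day 7 and 7.94 to 4851 CPM in the 8. Of this list Far2 had no row and Awat2 had 0 CPM in all day 3 libraries. The sum at day 3 thus rested on Thrsp, Mogat1 and Elovl3, and the origin of this signal was not tested. In IR day 3 replicates 3 and 4, markers of nasal glands summed to 307220 and 361036 CPM. That sum was 595 to 69201 CPM in the other replanted libraries and 23414 CPM in NT. The fold changes between the days are also given without the 4 libraries.

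Over the 24 replanted libraries the inhibitors had the highest CPM of the 9 genes. Sfrp1 averaged 107.9 ± 36.1 CPM, Sfrp2 85.3 ± 34.9, Sfrp4 63.6 ± 32.2, Dkk3 45.4 ± 24.6 and Wif1 37.5 ± 21.9 CPM (SD, n = 24). The coreceptors were lower, with Lrp6 at 9.35 ± 3.63 and Lrp5 at 7.67 ± 3.77 CPM, and the target genes lowest, with Axin2 at 2.32 ± 1.54 and Lef1 at 2.27 ± 1.55 CPM. Each inhibitor lay above the next gene of this order in 19 to 21 of 24 libraries, Lrp6 above Lrp5 in 18 and Lrp5 above Axin2 in 23. Axin2 exceeded Lef1 in 13 of 24 libraries, so these neighbours were not separated by their level. Neighbouring means differed by less than 1 SD except between Wif1 and Lrp6 and between Lrp5 and Axin2.

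**Figure D1:**
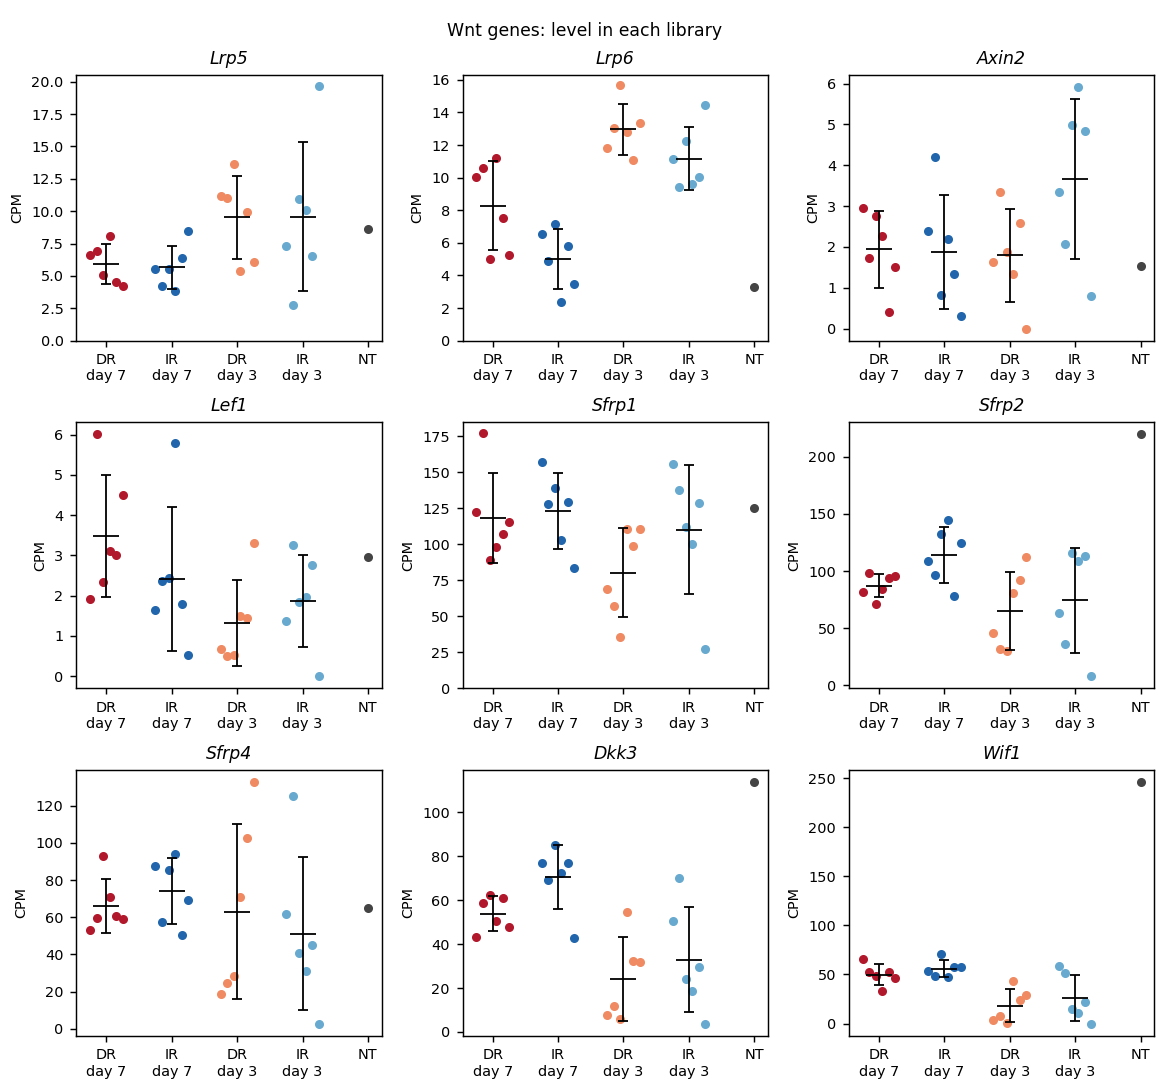
CPM of the 9 Wnt genes (vertical axes, linear, 1 panel per gene) in each library of DR day 7, IR day 7, DR day 3, IR day 3 and NT. Points are libraries, and the bar and whiskers are mean and SD of the 6 libraries of a group. Lrp6 lies lower at day 7 than at day 3, Dkk3 and Wif1 spread down to 3.82 and 0 CPM at day 3, and NT is the highest library for Sfrp2, Dkk3 and Wif1.

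Day 7 was first compared with day 3 over both drying times. The coreceptors Lrp6 and Lrp5 were lower at day 7 and the inhibitor Dkk3 was higher, while the other 6 genes did not pass the test. The edgeR quasi-likelihood test called 3 of the 9 genes at a Benjamini-Hochberg adjusted p under 0.05, 1 higher and 2 lower, against 18.8% of all genes tested (6.94% higher and 11.8% lower). The median log2 fold change was 0.36 over the 9 genes and -0.06 over all genes. DESeq2 called 4 of the 9 genes (26.4% of all genes), limma-voom 3 (19.6%) and limma-voom with sample quality weights, which gives scattered libraries less weight, 7 (47.7%). Without the 4 day 3 libraries that stood apart, edgeR called 0 of the 9 genes, and 176 of all genes against 2156 with them. Sums of cell type markers also differed between the days in the same libraries. Median marker sums were 6424 CPM at day 7 and 1206 CPM at day 3 for ligament fibroblasts, and 50466 and 16582 CPM for osteoblasts. Medians were also higher at day 7 for immune and bone-resorbing cells, with 4704 CPM at day 7 and 721 CPM at day 3 for osteoclasts, 637 and 183 CPM for macrophages, 106 and 26.6 CPM for T cells and 52.2 and 4.81 CPM for B cells. Medians were lower at day 7 for olfactory epithelium, with 29.3 CPM at day 7 and 128 CPM at day 3, and for Schwann cells, with 67.8 and 149 CPM. Lipid-secreting glands (14.3 and 1371 CPM) and skeletal muscle (156 and 793 CPM) were also lower over both drying times, but the drying times differed. Lipid gland medians were 14.3 CPM at day 7 and 9135 CPM at day 3 in DR, and 20.5 and 23.4 CPM in IR. Skeletal muscle medians were 68.2 CPM at day 7 and 1903 CPM at day 3 in DR. In IR they ran the other way, with 1037 CPM at day 7 and 180 CPM at day 3. The part of these cell types in the differences was not tested. In bulk tissue, fewer cells of a type and less RNA per cell cannot be told apart.

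Lrp6 had a lowest, median and highest level of 4.98, 8.80 and 11.2 CPM in DR day 7, and of 2.34, 5.32 and 7.14 CPM in IR day 7. The same values were 11.1, 12.9 and 15.7 CPM in DR day 3 and 9.44, 10.6 and 14.5 CPM in IR day 3. The IR libraries of day 7 all lay below those of day 3, whereas in DR the highest library of day 7 lay just above the lowest of day 3. Over both drying times Lrp6 fell by 0.90 on the log2 scale (SE 0.179, edgeR adjusted p = 0.00653), and it was called with each of the 24 libraries left out in turn (adjusted p 0.00418 to 0.0142). Without the 4 day 3 libraries the log2 fold change was -0.81 (adjusted p = 0.0574), so the size was similar and the call was lost. With IR day 3 replicates 3 and 4 left out as well, it was -0.79 (edgeR adjusted p = 0.153). The level of Lrp6 in those 4 libraries, 11.8 to 15.7 CPM, overlapped with the 9.44 to 13.4 CPM of the 8 other day 3 libraries.

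Lrp5, the related coreceptor known for its effect on bone mass, had 4.26, 5.84 and 8.07 CPM in DR day 7 and 3.86, 5.52 and 8.46 CPM in IR day 7 (lowest, median, highest). At day 3 the values were 5.35, 10.5 and 13.6 CPM in DR and 2.75, 8.72 and 19.7 CPM in IR. The groups overlapped, and the highest level came from IR day 3 replicate 6, where lipid gland markers also peaked. Lrp5 fell by 0.72 (SE 0.2445, edgeR adjusted p = 0.0428), and the call was lost with limma-voom (-0.59, adjusted p = 0.0914) and with no filter on low counts (edgeR adjusted p = 0.0567). The edgeR call was kept in 7 of 24 fits that each left out 1 library, those without DR day 3 replicate 4 or 6, DR day 7 replicate 4, IR day 3 replicate 1, 2 or 5, or IR day 7 replicate 6, and adjusted p reached 0.0955 in the others. Without the 4 day 3 libraries the log2 fold change was -0.32 (adjusted p = 0.547). With IR day 3 replicates 3 and 4 left out as well, it was -0.10 (edgeR adjusted p = 0.918). In those 4 libraries Lrp5 stood at 11.1 to 19.7 CPM, just above the 2.75 to 10.9 CPM of the 8 others.

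Among the inhibitors, Dkk3 had 43.2, 54.8 and 62.3 CPM in DR day 7 and 42.95, 74.6 and 85.2 CPM in IR day 7, as lowest, median and highest. At day 3 it had 5.96, 22.04 and 54.9 CPM in DR and 3.82, 27.0 and 70.2 CPM in IR. The day 7 libraries lay in a narrow range, and the day 3 libraries reached from far below it to within it. Dkk3 rose by 1.13 (SE 0.353, edgeR adjusted p = 0.0308). The adjusted p was 0.0508 without DR day 3 replicate 1 and 0.0516 without DR day 3 replicate 2, and the log2 fold change was 0.68 (adjusted p = 0.102) without the 4 day 3 libraries, which held 3.82 to 12.05 CPM against 18.5 to 70.2 CPM in the 8 others. With IR day 3 replicates 3 and 4 left out as well, the log2 fold change was 0.49 (edgeR adjusted p = 0.234).

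Wif1 followed the same shape, and whether it passed depended on the tool. It had 32.7, 50.5 and 65.3 CPM in DR day 7, 47.3, 55.6 and 70.4 CPM in IR day 7, 0.851, 15.8 and 43.9 CPM in DR day 3, and 0, 18.4 and 58.3 CPM in IR day 3. Its log2 fold change was 1.27 (SE 0.517, edgeR adjusted p = 0.0846). It was called by DESeq2 (1.27, adjusted p = 0.0475), by limma-voom (2.21, adjusted p = 0.0195) and with sample quality weights (2.12, adjusted p = 7.9e-05). The edgeR value was 0.75 (adjusted p = 0.139) without the 4 day 3 libraries. Leaving out DR day 3 replicate 4 (1.505, adjusted p = 0.0427) or IR day 3 replicate 1 (1.47, adjusted p = 0.0464), each the highest library of its group, brought the edgeR value past the threshold. The count of 0 in IR day 3 replicate 6 allows a level of up to 0.603 CPM, taking 3 counts of the effective library size as the limit.

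The 3 Sfrp genes did not pass the edgeR test between the days. Sfrp1 had 88.7, 111.2 and 177.3 CPM in DR day 7 and 83.2, 128.5 and 156.8 CPM in IR day 7, against 35.7, 83.9 and 110.8 CPM in DR day 3 and 27.4, 120.0 and 155.4 CPM in IR day 3, with a log2 fold change of 0.36 (SE 0.219, edgeR adjusted p = 0.245). Sfrp2 had 70.9, 88.9 and 97.9 CPM in DR day 7 and 78.1, 116.6 and 144.8 CPM in IR day 7, against 30.1, 63.1 and 111.8 CPM in DR day 3 and 8.25, 86.4 and 115.7 CPM in IR day 3, with a log2 fold change of 0.52 (SE 0.295, edgeR adjusted p = 0.211). For Sfrp4 the values were 53.1, 60.1 and 93.2 CPM in DR day 7 and 50.4, 77.3 and 94.1 CPM in IR day 7, against 18.6, 49.7 and 132.9 CPM in DR day 3 and 2.82, 43.1 and 125.1 CPM in IR day 3, and its log2 fold change was 0.30 (SE 0.372, edgeR adjusted p = 0.588). All 3 genes were lowest in IR day 3 replicate 6, and on the log2 scale the day 3 groups of each spread more widely than its day 7 groups. With the 4 day 3 libraries left out, the values were 0.072 for Sfrp1 (edgeR adjusted p = 0.821), 0.15 for Sfrp2 (0.740) and -0.15 for Sfrp4 (0.771).

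The target genes were counted too rarely for small differences to be seen. Axin2 was represented by 0 to 42 reads per replanted library, with medians of 2.01 CPM in DR day 7, 1.77 CPM in IR day 7, 1.75 CPM in DR day 3 and 4.09 CPM in IR day 3, and its log2 fold change between the days was -0.43 (SE 0.463, edgeR adjusted p = 0.528). Lef1, also with 0 to 42 reads, had medians of 3.06 CPM in DR day 7, 2.07 CPM in IR day 7, 1.06 CPM in DR day 3 and 1.91 CPM in IR day 3, and a log2 fold change of 0.88 (SE 0.443, edgeR adjusted p = 0.159). The values without the 4 day 3 libraries were -0.30 for Axin2 (edgeR adjusted p = 0.813) and 0.44 for Lef1 (0.587). Libraries of each group overlapped with those of the others for both genes. A count of 0, in DR day 3 replicate 6 for Axin2 and in IR day 3 replicate 6 for Lef1, allows up to 0.495 and 0.603 CPM.

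Within each drying time edgeR called 0 of the 9 genes in DR (0.0087% of all genes, with 3 of the 9 genes and 2589 of all genes at an unadjusted p under 0.05) and 0 of the 9 in IR (0.139% of all genes, with 3 of the 9 genes and 2340 of all genes at that p). Lrp6 was at -0.65 in DR (SE 0.2515, edgeR adjusted p = 0.135) and at -1.15 in IR (SE 0.255, edgeR adjusted p = 0.0603). In IR it passed without IR day 3 replicate 1 (adjusted p = 0.0293) or replicate 2 (0.0370) and with DESeq2 (0.000679). A two-sided exact permutation test of its log2 CPM gave p = 0.00216 in IR, the smallest that 6 against 6 libraries allow (0.186 after adjustment over all genes). Dkk3 was at 1.16 in DR (SE 0.50, edgeR adjusted p = 0.176) and at 1.10 in IR (SE 0.498, edgeR adjusted p = 0.220). Lef1 was at 1.39 in DR (SE 0.633, edgeR adjusted p = 0.195) and at 0.36 in IR (SE 0.623, edgeR adjusted p = 0.755). Lrp5 was at -0.69 in DR (SE 0.346, edgeR adjusted p = 0.237) and at -0.75 in IR (SE 0.346, edgeR adjusted p = 0.226). Wif1 was at 1.45 in DR (SE 0.736, edgeR adjusted p = 0.246) and at 1.09 in IR (SE 0.728, edgeR adjusted p = 0.393). The genes at an unadjusted p under 0.05 were Lrp6, Dkk3 and Lef1 in DR and Lrp6, Dkk3 and Lrp5 in IR. Without the 4 day 3 libraries Lrp6 was at -0.56 in DR (edgeR adjusted p = 0.668) and -1.06 in IR (0.0707), Dkk3 at 0.47 in DR (0.750) and 0.88 in IR (0.106), Lef1 at 0.78 in DR (0.795) and 0.10 in IR (0.932), Lrp5 at -0.24 in DR (0.937) and -0.41 in IR (0.518), and Wif1 at 0.65 in DR (0.700) and 0.84 in IR (0.194). Limma-voom with sample quality weights called 6 of the 9 genes in DR, against 28.8% of all genes, and 6 in IR, against 38.2%. DESeq2 called 0 of the 9 in DR (9.26% of all genes) and 1 in IR (6.51%), and limma-voom called 0 of the 9 in DR (0.0087%) and in IR (0.0783%).

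**Figure D2:**
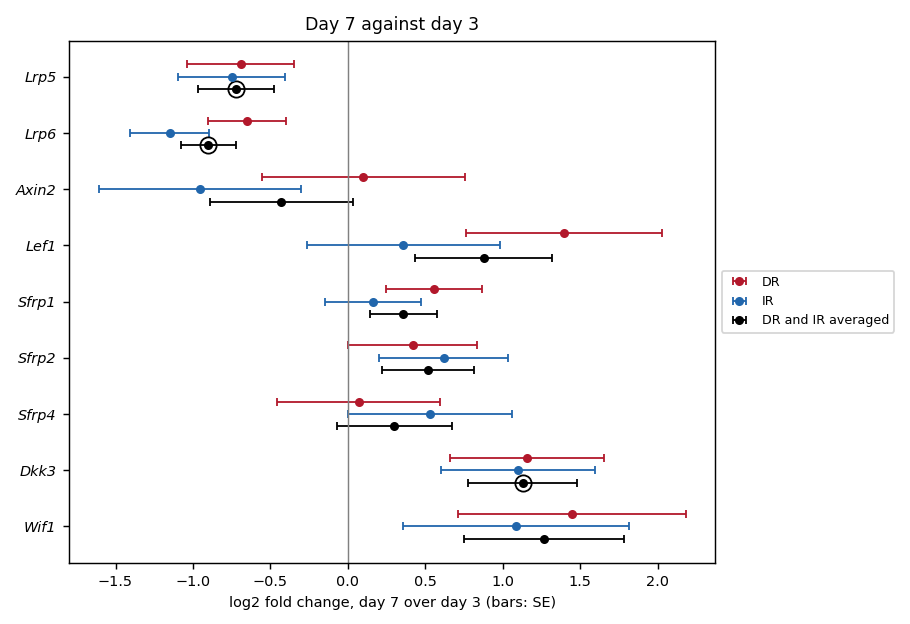
Log2 fold change of day 7 over day 3 (horizontal axis) with its SE for the 9 Wnt genes, in DR, in IR and averaged over both; rings mark the calls. The coreceptors lie at -0.72 and -0.90 on average, and Dkk3 at 1.13.

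The effect of drying was asked at day 7 first. edgeR called 0 of the 9 genes and 0.0% of all genes, with 1 of the 9 genes and 206 of all genes at an unadjusted p under 0.05, and DESeq2 called 3 genes, none of them among the 9. Limma-voom called 0 genes with and without sample quality weights. The one with the small p was Lrp6, at 0.72 (SE 0.254, edgeR adjusted p = 1). Its mean was 8.27 ± 2.74 CPM in DR day 7 and 5.02 ± 1.84 CPM in IR day 7 (SD, n = 6 each, two-sided exact permutation p = 0.0476 on log2 CPM, 0.976 after adjustment over all genes). The groups overlapped, with 4 DR libraries above all IR libraries. At this day same-numbered DR and IR libraries correlated in their deviations from the group means, though only 2 of 6 pairs were each other's best match. With the number as a block, an alternative chosen after seeing the data, among the 12 day 7 libraries Lrp6 stood at 0.73 (edgeR adjusted p = 0.691).

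Of the inhibitors at day 7, Sfrp2 averaged 87.2 ± 10.3 CPM in DR and 114.2 ± 24.6 CPM in IR (SD, n = 6 each), a log2 fold change of -0.39 (SE 0.416, edgeR adjusted p = 1, two-sided exact permutation p = 0.0433 before adjustment). Dkk3 averaged 53.95 ± 7.80 CPM in DR and 70.6 ± 14.6 CPM in IR (SD, n = 6 each), also -0.39 (SE 0.492, edgeR adjusted p = 1, exact permutation p = 0.0584). The groups overlapped for both. The model estimates 1 spread for the 4 groups together, so the scatter of the day 3 libraries enters the SE of these values. Lef1 was at 0.52 (SE 0.614), Wif1 at -0.17 (SE 0.718), Sfrp4 at -0.16 (SE 0.526), Sfrp1 at -0.06 (SE 0.309), Lrp5 at 0.06 (SE 0.346) and Axin2 at 0.05 (SE 0.655), each smaller than its SE.

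At day 3, edgeR called 0 of the 9 genes and 0.0% of all genes for drying, with 0 of the 9 and 313 of all genes at an unadjusted p under 0.05. DESeq2 and limma-voom also called 0 genes, and limma-voom with sample quality weights called 1190, none of them among the 9. Without IR day 3 replicate 6 edgeR called 576 genes, again none of the 9. Axin2 had the largest difference of the 9 genes, with 1.80 ± 1.14 CPM in DR day 3 and 3.66 ± 1.96 CPM in IR day 3 (SD, n = 6 each), a log2 fold change of -1.01 (SE 0.655, edgeR adjusted p = 0.983). Axin2 levels overlapped between the groups. Wif1 was at -0.53 (SE 0.726), Lef1 at -0.51 (SE 0.634), Sfrp1 at -0.46 (SE 0.310), Dkk3 at -0.44 (SE 0.496), Sfrp4 at 0.30 (SE 0.527), Lrp6 at 0.22 (SE 0.250) and Sfrp2 at -0.19 (SE 0.416), with edgeR adjusted p of 0.983 each. Lrp5 was at 0.00012 (SE 0.321, edgeR adjusted p = 1). The 3 DR libraries of highest lipid gland level and the 1 in IR are part of these groups, and without these 4 libraries the log2 fold change of Axin2 was -1.69 (edgeR adjusted p = 0.713). That fit kept DR day 3 replicates 5 and 6, with lipid gland sums of 4851 and 2684.5 CPM, and replicate 4, with 49.8 CPM. The IR day 3 libraries it kept reached at most 57.2 CPM, so this signal was tied to drying time at day 3. Its part in the drying comparison was not tested.

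Whether drying acted differently at the 2 days was tested as an interaction, the effect at day 7 minus that at day 3. edgeR called 0 of the 9 genes and 0 of all genes, with 346 of all genes at an unadjusted p under 0.05. The highest values were 1.06 for Axin2 (SE 0.925) and 1.04 for Lef1 (SE 0.883). Averaged over both days, drying called 0 genes (197 at an unadjusted p under 0.05), and Lrp6 was again the only one of the 9 at an unadjusted p under 0.05, at 0.47 (SE 0.178, edgeR adjusted p = 1). The drying comparisons share libraries with each other and with the comparisons between days.

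**Figure D3:**
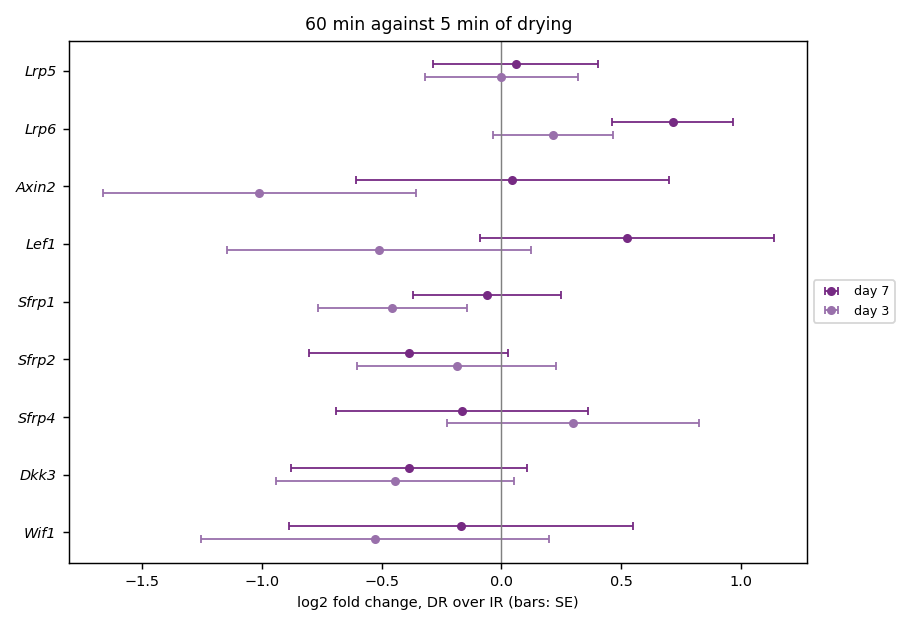
Log2 fold change of DR over IR (horizontal axis) with its SE for the 9 Wnt genes at day 7 and at day 3. Lrp6 at day 7 lies at 0.72 and Axin2 at day 3 at -1.01, and edgeR called none of the 18 values shown.

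NT gives the only library without replantation, so its levels are set beside those of the 24 replanted libraries without a test. Wif1 stood at 246.3 CPM in NT against 0 to 70.4 CPM in the replanted libraries, 6.57 times their mean. Sfrp2 stood at 219.5 CPM in NT against 8.25 to 144.8 CPM, and Dkk3 at 114.0 CPM in NT against 3.82 to 85.2 CPM, 2.58 and 2.51 times the replanted mean. These 3 inhibitors were higher in NT than in all 24 replanted libraries. The share of all genes tested that did the same is not given here, so the count of 3 cannot be read as particular to these genes. Exact binomial 95% intervals on total counts were 234.7 to 255.9 CPM for Wif1, 208.7 to 228.7 CPM for Sfrp2 and 106.4 to 120.9 CPM for Dkk3, which cover counting error only.

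The other inhibitors did not stand out in NT. Sfrp1, at 124.8 CPM, lay above 16 of 24 replanted libraries and Sfrp4, at 64.9 CPM, above 14. Lrp6 had 3.31 CPM in NT and exceeded 1 of 24 replanted libraries, 0.354 times their mean, whereas Lrp5 with 8.63 CPM exceeded 17. Axin2 with 1.54 CPM and Lef1 with 2.96 CPM lay within the replanted range, above 8 and 17 libraries. The NT library also held the highest sums of osteoblast markers, 144551 CPM, and of ligament fibroblast markers, 21458 CPM, against at most 96884 and 10352 CPM in replanted libraries. Col1a1 gave 125850 CPM of the osteoblast sum. Of the osteoblast markers only Col1a1 and Bglap lay above the replanted range, and Ibsp, Sp7, Alpl, Runx2 and Spp1 lay within it. Col3a1 gave 18156 CPM of the ligament sum. Of the ligament markers Col3a1, Postn, Aspn and Omd lay above the replanted range, and Tnmd and Scx lay within it. Sums were also highest in NT for markers of odontoblasts and pulp (2403 CPM in NT against at most 1249 CPM) and neutrophils (9842 against 9301 CPM). The cartilage sum was highest in NT too (419 against 276 CPM), but Col11a2 alone gave 394 CPM of it. The other cartilage markers lay within the replanted range, with Col2a1 at 0.71 CPM in NT against 0 to 44.7 CPM. The part of these cell types in the difference was not tested.

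**Figure D4:**
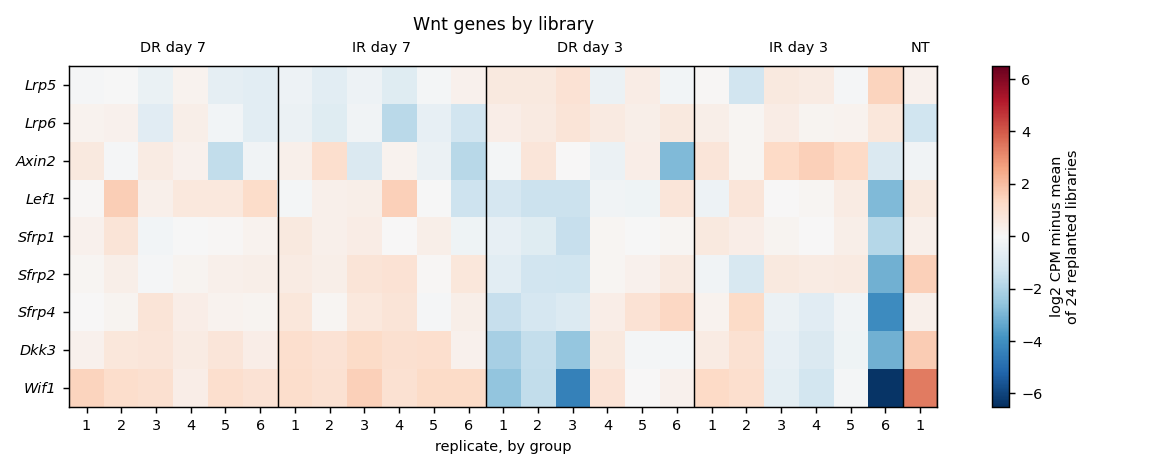
Log2 CPM of each Wnt gene (rows) in each library (columns, by group) minus its mean over the 24 replanted libraries, from blue (lower) to red (higher). DR day 3 replicates 1 to 3 and IR day 3 replicate 6 are low for Dkk3 and Wif1 and high for Lrp5, and NT is high for Wif1.

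Several of the 9 genes varied together across libraries. Spearman's rho of log2 CPM over the 24 libraries was 0.785 between Dkk3 and Wif1, 0.671 between Sfrp1 and Wif1 and 0.669 between Lrp5 and Lrp6, and it was -0.806 between Lrp5 and Dkk3 and -0.693 between Lrp6 and Dkk3. After group means had been removed, rho was 0.843 for Sfrp4 with Dkk3, 0.833 for Dkk3 with Wif1, 0.834 for Sfrp1 with Wif1 and -0.732 for Lrp5 with Dkk3. It was weaker for Lrp5 with Lrp6, at 0.378, and for Lrp6 with Dkk3, at -0.117. Axin2 followed none of the other 8 genes closely, with rho between -0.231 and 0.124 over the 24 libraries. Its 0 to 42 reads per replanted library limit the precision of these values. These values describe libraries that also differ together in marker sums and in depth. The 4 day 3 libraries that stood apart are at the ends of the range for Dkk3, Wif1, Sfrp1, Sfrp4 and Lrp5.

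The genes whose levels were most like a given Wnt gene over the 24 libraries were sought among genes of average log2 CPM 3 and above. Dkk3 was closest to Grn (rho 0.950), which encodes progranulin, Mmp14 (0.946), a membrane-bound collagen-cleaving protease, and Glb1 (0.944), a lysosomal galactosidase. Wif1 was closest to Sorcs2 (0.904), Pdgfa (0.902), a growth factor, and RGD1559896 (0.902). For Sfrp4 they were Gulp1 and Maged2 (0.879 each) and Mmp13 (0.877), the collagenase of bone and cartilage. Lrp6 was closest to Hspa9 (0.871), Syap1 (0.865) and Cfdp1 (0.861), and Lrp5 to the amino acid transporter Slc7a1 (0.874), Hsdl2 (0.861) and Mpzl2 (0.830). Sfrp1 was closest to Adarb1 (0.825), Sfrp2 to Leng8 (0.770), Lef1 to Snrnp48 (0.837) and Axin2 to Cog1 (0.757). After group means had been removed, Dkk3 was closest to Slc1a5 and C1qtnf1 (0.975 each), Sfrp4 to Olfml3 (0.930), Sfrp2 to Mapk7 (0.918), Sfrp1 to Ndrg1 (0.915) and Wif1 to Hnrnpd (0.910).

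A further 92 genes of the pathway were listed by role. Of these, 81 had a row and 59 were tested, and in day 7 against day 3 over both drying times edgeR called 2 higher and 2 lower, 4 of 59 against 18.8% of all genes. The count depended on the tool, with 5 higher and 3 lower by DESeq2 (26.4% of all genes), 10 higher and 2 lower by limma-voom (19.6%) and 19 higher and 9 lower with sample quality weights (47.7%). With single libraries left out, edgeR called from 1 higher and 1 lower, without DR day 3 replicate 2, to 7 higher and 4 lower, without IR day 3 replicate 1. It called 0 of these genes without the 4 day 3 libraries. In the other 6 comparisons edgeR called no gene of the lists.

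Among R-spondins, their receptors and receptor turnover, 1 of 4 tested genes passed. Rspo1, a secreted protein that raises the number of Wnt receptors at the surface, had a lowest, median and highest level of 4.32, 8.66 and 13.4 CPM at day 7 and 0, 3.11 and 9.78 CPM at day 3, and rose by 1.37 (SE 0.413, edgeR adjusted p = 0.0261). Of 6 other inhibitors tested, Dkk2, a Dickkopf ligand of Lrp5 and Lrp6, rose by 1.20 (SE 0.400, edgeR adjusted p = 0.0404), with 2.88, 5.92 and 12.7 CPM at day 7 and 0, 2.60 and 6.33 CPM at day 3. Dkk4, of the same family, fell by 1.06 (SE 0.226, edgeR adjusted p = 0.00744), with 1.84, 4.31 and 6.17 CPM at day 7 and 5.80, 7.47 and 14.1 CPM at day 3, so that its days overlapped little. Of 10 genes of the destruction complex and Dishevelled, Apc, a scaffold of the complex, fell by 0.84 (SE 0.233, edgeR adjusted p = 0.0181), with 15.3, 28.3 and 50.1 CPM at day 7 and 24.3, 39.1 and 90.5 CPM at day 3.

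Rspo1 and Dkk4 kept their calls with any single library left out, Apc lost its call without DR day 3 replicate 2 (adjusted p = 0.0524), and Dkk2 kept its call in 12 of 24 such fits. Without the 4 day 3 libraries the values were 1.17 for Rspo1 (adjusted p = 0.0581), 1.08 for Dkk2 (0.123), -0.82 for Dkk4 (0.0958) and -0.70 for Apc (0.116). In the other 4 lists edgeR made 0 calls, whereas DESeq2 called Wnt16, Wls, Ctnnbip1 and Wisp2, and limma-voom called 8 genes, among them Wnt16, Ptk7, Ctnnbip1 and Wisp2. Among Wnt ligands and their secretion, with 9 tested, Wnt16 was at 1.27 (edgeR adjusted p = 0.0671) and Wls, which carries Wnt proteins to the surface, at -0.47 (0.0678). Among 12 Frizzled and other receptors, Fzd1 was at 0.47 (0.105) and Ptk7 at 0.52 (0.139). Among 11 genes of beta-catenin and its nuclear partners, Ctnnbip1, an inhibitor of the contact between beta-catenin and Tcf proteins, was at 0.45 (0.0757) and the corepressor Tle1 at -0.66 (0.0838). Among 7 feedback and target genes, Wisp2 was at 1.12 (0.0564) and the cyclin Ccnd1 at 0.15 (0.252).

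**Figure D5:**
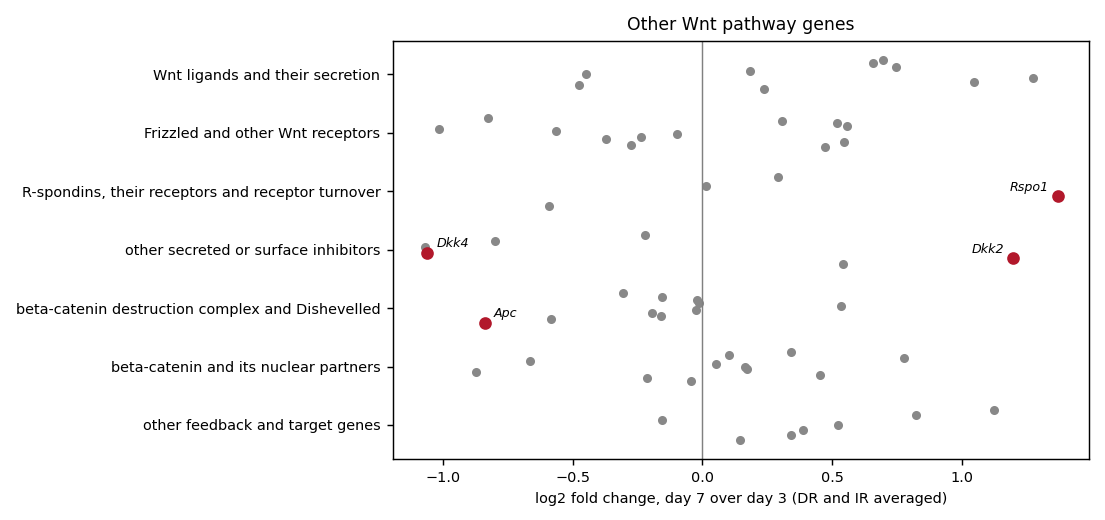
Log2 fold change of day 7 over day 3, averaged over DR and IR (horizontal axis), of the 59 tested genes of the other Wnt pathway lists (rows); each point is a gene, and red named points are those called. Rspo1 (1.37) and Dkk2 (1.20) lie to the right, and Dkk4 (-1.06) and Apc (-0.84) to the left.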

How the data were processed

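The deposited values were whole-number read counts per gene symbol, 1 table per library for 25 libraries, not normalised, as the authors' files hold them. Per the labels' protocols, Lexogen QuantSeq 3′ libraries were made from 500 ng of Trizol-extracted total RNA. The submitters' processing notes name Bowtie2, edgeR, mm10 and rn6; for their roles, the counting tool, the annotation and the strand setting, the sources used here give nothing. Reads shared with overlapping or antisense genes therefore cannot be told apart.

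Of 17048 rows, 149 symbols were repeated and the row of highest total was kept. Counts of the 24 replanted libraries entered 1 edgeR model (R 4.3.3, edgeR 4.0.16, TMM scaling, filterByExpr, robust quasi-likelihood fit, 20 residual degrees of freedom). Calls were made at a Benjamini-Hochberg adjusted p under 0.05 over 11492 genes in each of 7 contrasts. Levels are CPM, or log2 CPM with a prior count of 2. No 2 libraries of a group agreed within sampling noise (chi-square per degree of freedom at least 24.7). The model was tested on simulated data with the same set spread for all genes and groups and with changes in DR day 7 only. That test does not cover the unequal scatter of the day 3 and day 7 libraries. Counting intervals and limits cover counting error only, since no molecular identifiers are named.

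Same-numbered day 7 libraries of DR and IR correlated in their deviations from the group means (0.214 to 0.72 in 6 of 6 pairs). Only 2 of these pairs were each other's best match, so a pairing by number is not established. Alternatives were RLE scaling, no ribosomal RNA entries, no filter, DESeq2 1.42.0, limma-voom (limma 3.58.1) with and without sample quality weights, only the libraries compared, a replicate block, exact permutation, and libraries left out. The genes and lists were chosen with earlier results of these data known. All genes of the set are named, and of each pathway list the called genes (up to 4) or, if there was none, the 2 genes with the lowest p, for the comparison between days over both drying times. For likeness, the closest genes by Spearman's rho are named, up to 3 per gene.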

Additional observations from a re-analysis of the deposited data

Results flagged for a closer look

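Of 36 sets of log2 CPM (9 genes in 4 groups of 6 libraries), 6 had a library far from the others, with a gap to its neighbour beyond Dixon's 95% critical value. Chance flags about 1 in 20 groups. Of these values, 4 belong to IR day 3 replicate 6, where lipid gland markers also peaked. In it Sfrp1 stood at 4.79, Sfrp4 at 1.63, Lef1 at -1.79 and Wif1 at -1.79 log2 CPM, the last 2 with a count of 0. In DR day 3 replicate 6, Axin2 stood at -1.79 log2 CPM, also with a count of 0. In IR day 7 replicate 6, Dkk3 stood at 5.43 log2 CPM, below the other 5 libraries of its group.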

How the results depend on the processing

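Over 75 log2 fold changes (9 genes in 7 comparisons and 12 pathway genes in 1) and the alternatives other than a single left-out library, 662 of 755 values kept direction and side of the threshold, 38 changed sign, 20 lost a call and 35 gained one; the causes were not tested. The number of the 9 genes called for day 7 against day 3 over both drying times, 3 as reported, was 7 with voom sample quality weights, 0 without the 4 and 0 without the 6 day 3 libraries (the 4, with IR day 3 replicates 3 and 4), 1 with the replicate block and 1 to 4 with single libraries left out. All genes called, 2156 as reported, were 5479, 176, 51, 1197 and 1375 to 2916 in the same order, and limma-voom called 1462 higher and 794 lower against 797 higher and 1359 lower as reported. Within IR, 1 gene was called with DESeq2, 6 with sample quality weights and 0 to 1 with single libraries left out, and within DR 6 with sample quality weights. Of all genes, DESeq2 called 748 within IR and 1064 within DR (16 and 1 as reported), sample quality weights 4394 and 3305, and single libraries left out 0 to 402 and 0 to 1420. For drying, single libraries left out gave 0 to 576 calls of all genes at day 3 and 0 to 201 over both days, sample quality weights 1190 and 245, and the interaction had 522 with them and 11 with DESeq2, none of these among the 9 genes.

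Signs turned only for values that were not called. Without the 4 libraries they were, for drying at day 3, -0.10 for Lrp5, 0.081 for Sfrp2, 0.033 for Dkk3 and 0.031 for Wif1; for time, -0.036 for Sfrp1 in IR, -0.086 for Sfrp2 and -0.59 for Sfrp4 in DR, and -0.15 for Sfrp4 over both; for the interaction, -0.41 for Dkk3 and -0.19 for Wif1; and for drying over both days -0.021 for Lrp5. Without the 6 libraries they were 0.39 for Sfrp2 (drying at day 3), 0.037 for Lrp5, -0.020 for Lef1, -0.18 for Sfrp1 and -0.036 for Sfrp4 (time in IR), -0.087 for Sfrp2 and -0.60 for Sfrp4 (time in DR), -0.32 for Sfrp4 (time over both), -0.28 for Lrp5 and -0.045 for Dkk3 (interaction), and 0.0071 for Sfrp2 (drying over both days). RLE scaling gave -0.045 and -0.0027 for Lrp5 (drying at day 3 and over both days) and -0.029 for Lef1 (both days), and DESeq2 gave -0.039, -0.0033 and -0.032 for the same. Limma-voom gave 0.037 for Sfrp2 (drying at day 3) and -0.23 for Lrp5 (interaction), and with sample quality weights -0.0022 for Lrp5 and 0.48 for Sfrp2 (interaction) and -0.29 for Lef1 (drying over both days). The permutation difference for Sfrp2 at day 3 was 0.064. Without ribosomal RNA entries Axin2 was at -0.0017 (drying at day 7) and Lrp5 at -0.0094 (interaction), and without the filter at -0.0066 and -0.021.

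With single libraries left out, 16 of the fold changes turned sign in at least 1 fit. Their ranges were -0.19 to 0.35 for Lrp5 and -0.060 to 0.79 for Sfrp4 (drying at day 3), -0.048 to 0.23 for Lrp5, -0.16 to 0.47 for Axin2 and -0.20 to 0.026 for Sfrp1 (drying at day 7), -0.11 to 0.59 for Lef1 and -0.039 to 0.29 for Sfrp1 (time in IR), -0.16 to 0.43 for Axin2 and -0.12 to 0.43 for Sfrp4 (time in DR), -0.29 to 0.25 for Lrp5, -0.37 to 0.033 for Sfrp2, -0.31 to 0.48 for Dkk3 and -0.047 to 0.84 for Wif1 (interaction), and -0.066 to 0.20 for Lrp5, -0.24 to 0.24 for Lef1 and -0.11 to 0.31 for Sfrp4 (drying over both days).

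Same-numbered libraries correlated positively in every pair at day 7 alone. Elsewhere the correlations ran from -0.415 to 0.214 between DR and IR at day 3, -0.293 to 0.337 between days in IR and -0.493 to -0.06 in DR. The labels number the day 7 libraries 1 to 6, but their deposited column names run from 2 to 7. Label numbers were used, so the correlations between days and the block over all libraries hold for that numbering alone, while the day 7 pairs are the same under both. The replicate block over all libraries left Lrp5 at an adjusted p of 0.0911, Dkk3 at 0.0558 and Dkk2 at 0.0634, each without a call, and the day 7 block changed no call of the 9 genes. Axin2 and Lef1 had 0 to 42 reads per library, which limits the precision of their values.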
